A study of Mus musculus with 25 samples.

Results

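Genes that sense or remove extracellular nucleotides, or are close relatives of such receptors, were followed through 4 macrophage populations of mouse white adipose tissue and through blood monocytes. They are P2ry12, P2ry13, P2ry14, P2ry6, P2ry2, P2rx4, P2rx7, Gpr34 and Entpd1, taken from the count table by symbol, and all 9 of them were found among its 24537 genes and passed the filter on low counts. P2ry12 and Gpr34 had the highest means of the 9 per kilobase of gene model over the adipose libraries. Both were lower in the libraries from mice on a high fat diet than in those on the control diet in each of the 4 adipose populations. Of the ATP-gated channels, P2rx4 had overlapping levels on the 2 diets in all 4 adipose populations and P2rx7 in the first 3.

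Cells that are stressed or dying release ATP and other nucleotides, which act on neighbouring cells as signals. The P2Y receptors are G protein-coupled receptors for ADP, ATP, UDP, UTP or UDP-glucose, the P2X receptors are cation channels opened by ATP, and the surface enzyme CD39, encoded by Entpd1, cuts ATP and ADP down to AMP. Macrophages use these receptors to find and take up injured cells and to trigger inflammasomes. P2RY12 is best known as the ADP receptor of platelets and of resting microglia, and GPR34, a relative of the P2Y12 group that responds to lysophosphatidylserine, is likewise high in microglia.

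The 25 libraries were each made from 200 sorted cells of C57BL6 mice. Adipose macrophages were sorted from eWAT, as the labels name the fat depot, into 4 populations. Those with surface Tim4+ gave pop1, gated as MHCII low, and pop2, gated as MHCII high. Those without it (Tim4-) gave pop3, which was CD11c- with MHCII high, and pop4, which was CD11c+ and also MHCII+. Blood monocytes were gated on CD115 and Ly6C. Mice received a control diet with 10% fat (CD) or a high fat diet with 45% fat (HFD), giving 2 libraries per adipose population and diet, 6 CD monocyte libraries and 3 HFD monocyte libraries. Libraries are named by the number in their titles, 7 and 8 for adipose CD, 2 and 3 for adipose HFD. Every adipose control library has CD-CD in its title, whereas 3 control monocyte libraries are titled CD and 3 CD-CD, so in adipose tissue diet and title series cannot be told apart. The labels do not give the age of the mice, the length of the diets, or whether libraries came from separate animals, so the spread between libraries may be technical. Fat was dissociated by collagenase with the transcription inhibitor flavopiridol added, and no digestion is described for blood, so tissue and handling cannot be told apart in the comparison with monocytes. In sorted pools, fewer cells of a type and less RNA per cell cannot be told apart.

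Library totals ran from 3.75 to 9.34 M counts. Levels are in CPM, the count relative to the library's total, with library sizes scaled by TMM factors, a correction for differences in composition. A floor of 3 counts equals 0.342 to 0.7 CPM depending on the library, and it covers counting error only. Replicate libraries differed far beyond counting error, by 51.2 to 120 times its variance. The sort labels were checked against their own transcripts: Timd4 (Tim4) averaged 560 and 530 CPM in the CD libraries of pop1 and pop2 and at most 6.22 CPM in every group of pop3, pop4 and monocytes, and Itgax (CD11c) averaged 184 and 186 CPM in pop4 against at most 34.1 CPM in any other group. Timd4 was lower in the HFD libraries of the same gates, with means of 317 CPM in pop1 and 95.7 CPM in pop2. Ly6c2 averaged 483 and 532 CPM in the CD and HFD monocytes. These transcripts were on the side of their labels.

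The members lie in small clusters on the mm10 build. P2ry12 (chr3:59216271-59262831), P2ry13 (chr3:59207894-59210882) and P2ry14 (chr3:59114623-59130762) share the minus strand of chromosome 3, with 5388 bases between the first pair. P2ry6 (chr7:100937634-100964366) and P2ry2 (chr7:100996568-101011998) are neighbours on chromosome 7, also on the minus strand. P2rx7 (chr5:122643911-122684289) and P2rx4 (chr5:122707544-122729738) lie 23254 bases apart on the plus strand of chromosome 5. Gpr34 is on chrX:13632769-13640858 and Entpd1 on chr19:40659770-40741602, both on the plus strand. Promoter windows, running from 250 bases before to 50 after a transcript start, were taken from RefSeq on GRCm38.p6, where 7 of the 9 members had one. P2ry12 with P2ry13 and P2rx7 with P2rx4, chromosomal neighbours of the same receptor class that the results set side by side, are shown 5′ to 3′, with any match to a searched motif in capitals.
P2ry12 (chr3:59262936-59263235, minus strand): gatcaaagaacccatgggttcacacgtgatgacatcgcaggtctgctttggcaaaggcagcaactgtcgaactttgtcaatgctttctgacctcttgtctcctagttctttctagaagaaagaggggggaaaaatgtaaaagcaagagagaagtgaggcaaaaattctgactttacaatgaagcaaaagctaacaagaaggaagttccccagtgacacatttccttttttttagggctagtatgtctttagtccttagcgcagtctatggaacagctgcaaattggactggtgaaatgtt
P2ry13 (chr3:59210833-59211132, minus strand): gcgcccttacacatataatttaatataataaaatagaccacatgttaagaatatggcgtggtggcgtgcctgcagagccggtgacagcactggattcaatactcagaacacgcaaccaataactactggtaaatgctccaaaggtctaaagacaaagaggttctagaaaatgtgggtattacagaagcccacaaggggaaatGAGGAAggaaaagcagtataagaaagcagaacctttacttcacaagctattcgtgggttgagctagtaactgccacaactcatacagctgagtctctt
P2rx7 (chr5:122643677-122643976, plus strand): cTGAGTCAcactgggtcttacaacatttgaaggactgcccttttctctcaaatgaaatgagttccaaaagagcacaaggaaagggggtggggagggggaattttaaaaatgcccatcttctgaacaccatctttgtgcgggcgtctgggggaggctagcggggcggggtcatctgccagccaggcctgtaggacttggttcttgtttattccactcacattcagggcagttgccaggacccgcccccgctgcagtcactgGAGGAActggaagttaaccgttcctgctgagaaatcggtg
P2rx4 (chr5:122707294-122707593, plus strand): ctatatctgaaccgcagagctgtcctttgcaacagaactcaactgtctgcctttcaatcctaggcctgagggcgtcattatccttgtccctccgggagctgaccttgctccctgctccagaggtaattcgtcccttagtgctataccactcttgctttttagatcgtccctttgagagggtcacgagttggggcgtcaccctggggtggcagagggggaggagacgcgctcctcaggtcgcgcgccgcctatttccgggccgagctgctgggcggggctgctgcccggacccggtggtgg
Exact matches on both strands were counted for GAGGAA (the core read by PU.1, the lineage factor of macrophages), TGACTCA (AP-1), and TTGCGCAA or TTGCGAAA (CEBP). The PU.1 letters occurred 1 time in the P2ry13 window and 1 time in the P2rx7 window, against 28.3% of all 32851 windows with at least 1 match. The P2rx7 window also held 1 AP-1 match, found in 5.2% of windows, and the P2ry12 and P2rx4 windows held no match to any of the letters searched. CEBP letters were present in 0.356% of all windows and in none of the 4 shown. The P2rx4 window was richer in G and C (60.3%) than those of P2rx7 (53.3%), P2ry12 (42.3%) and P2ry13 (42.3%).

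Compared per kilobase of gene model, the members spanned more than 2 orders of magnitude in adipose macrophages. Gpr34 led at 213 ± 155 CPM per kb (SD, n = 16 libraries), followed by P2ry12 at 101 ± 84.7, P2rx4 at 75.1 ± 15.6, Entpd1 at 65.2 ± 21.7 and P2ry6 at 42.9 ± 12.8. P2rx7 (24.2 ± 11.1), P2ry13 (11.9 ± 12.4) and P2ry14 (11.4 ± 15.1) came lower, and P2ry2, a receptor for ATP and UTP, was near the floor at 0.565 ± 0.786 CPM per kb. The mean ± SD intervals of neighbours in this order overlapped throughout. The order differed by population. In pop4 P2rx4 came first (73.7 ± 5.27 CPM per kb, n = 4) and P2ry12 had dropped to the seventh place (8.79 ± 10.1), whereas in monocytes P2ry12 (61.3 ± 28.6, n = 9) and P2ry6 (55.1 ± 21.8) led and Gpr34 was the fourth (36.3 ± 13.6).

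**Figure D1:**
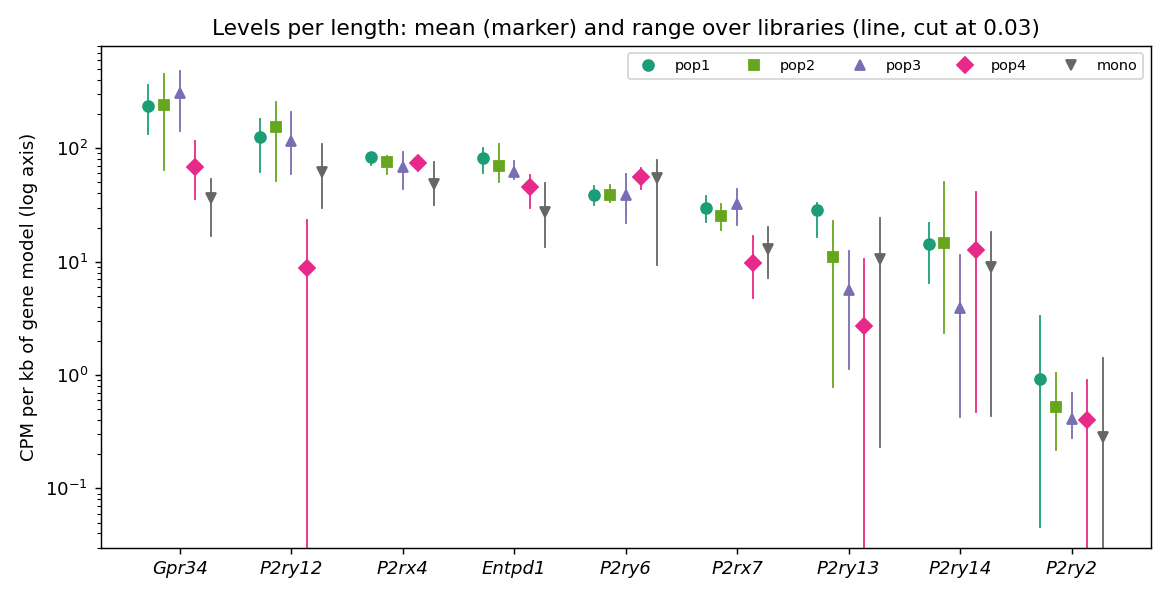
Mean level of each gene per kilobase of gene model (marker; CPM per kb, log axis) and the range over libraries (line) in pop1 to pop4 (4 libraries each) and monocytes (9 libraries). P2ry12 has its lowest mean in pop4 at 8.79 CPM per kb, and P2ry2 stays below 1 CPM per kb on average in all 5 cell populations.

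The members were chosen by name with their levels in all 25 libraries and the diet differences in the adipose populations already known. Their fitted log2 differences with standard errors (SE) are therefore given as a description without p-values, and the number that passed (adjusted p under 0.05 in edgeR's quasi-likelihood test over 16961 genes) stands beside the share of all genes that passed, with nothing read from it.

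**Figure D2:**
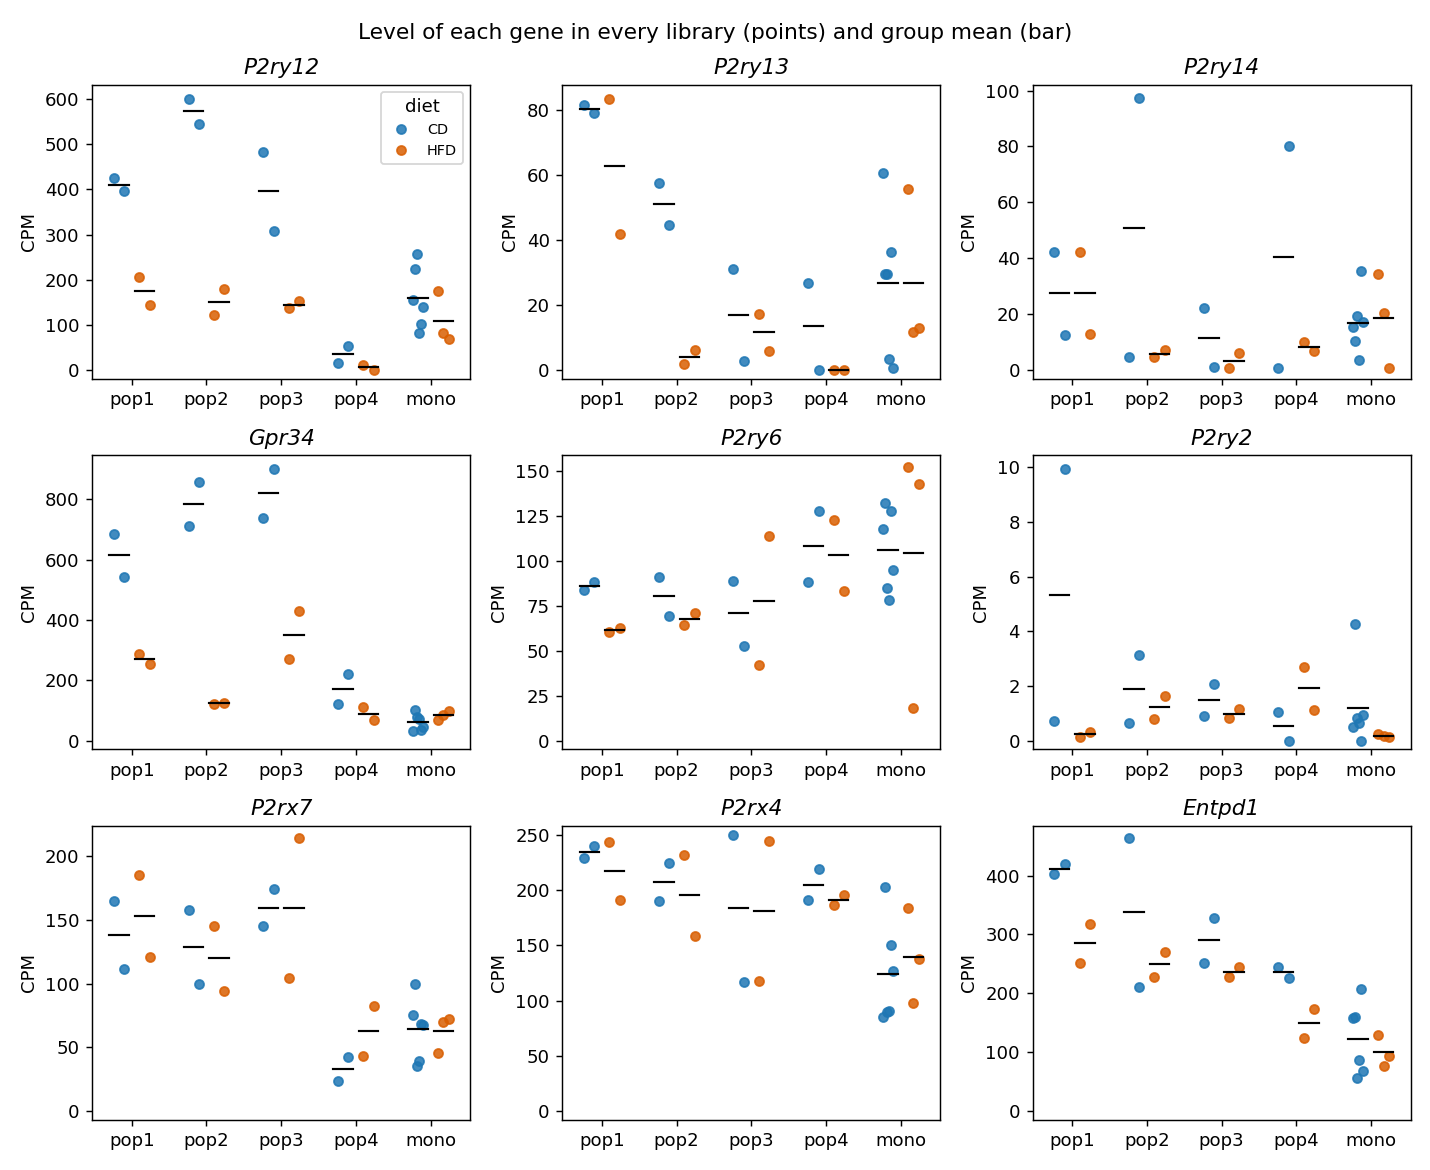
TMM-scaled CPM (linear axis) of the 9 genes in every library (points, blue CD, orange HFD) and group means (black bars) by population. The HFD points of P2ry12 and Gpr34 lie below the CD points in pop1, pop2, pop3 and pop4. Those of P2rx4 overlap the CD points in each of these populations.

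P2ry12 encodes the Gi-coupled ADP receptor. It stood at 424 and 397 CPM in the CD libraries of pop1 and at 206 and 144 CPM in the HFD libraries. In pop2 the CD values were 601 and 545 CPM and the HFD values 121 and 179 CPM, and in pop3 they were 483 and 308 CPM against 138 and 152 CPM. Thus the HFD libraries lay below the CD libraries in these 3 populations, with CD means 2.35, 3.81 and 2.73 times the HFD means. In pop4 the level was 15.8 and 54.2 CPM on CD and 12 and 0 CPM on HFD, so that one HFD library had no count of P2ry12 and both lay below the CD pair. The 6 CD monocyte libraries ran from 82 through a median of 148 to 257 CPM, and the HFD monocytes were at 176, 81.3 and 69.9 CPM, inside or just below that range.

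By population, P2ry12 averaged 362 ± 246 CPM in pop2 (SD, n = 4), 293 ± 139 in pop1, 270 ± 162 in pop3, 143 ± 66.6 in monocytes (n = 9) and 20.5 ± 23.5 in pop4. The first 4 overlap with their neighbour in this order, and all 4 pop4 libraries lay below all 9 monocyte libraries. Of the Tim4- populations, pop3 (138 to 483 CPM) overlapped both Tim4+ populations, and only pop4 (0 to 54.2 CPM) lay below them. The fitted difference was 4.05 (SE 0.69) for pop3 over pop4 on the log2 scale and 2.25 (SE 0.45) for Tim4+ over Tim4- populations. Between adipose tissue and monocytes it was -0.04 (SE 0.37), and between pop1 and pop2 it was -0.13 (SE 0.6). The pop3 to pop4 value rose to 8.23 without the HFD library 2 of pop4, since only the library at 0 was then left in that group. Averaged over the 4 adipose populations, HFD minus CD was -1.79 (SE 0.44), from -1.23 (SE 0.86) in pop1 through -1.45 (SE 0.87) in pop3 and -1.93 (SE 0.88) in pop2 to -2.55 (SE 0.93) in pop4, a value that was -10.94 and past the threshold without the HFD library 2 of pop4. The average was no longer past the threshold without the HFD library 3 of pop1, the HFD library 2 of pop3 or the CD library 8 of pop4, each left out in turn, and it moved to -3.89 without the HFD library 2 of pop4. It also lost its call in 4 of 8 other alternatives: no filter on low counts, only the groups compared, without both HFD libraries of pop2, and counts summed over populations. The pop3 to pop4 call was lost when only those groups were fitted.

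Control monocytes split by title series for this gene alone among the members, as the series overlapped for every other member. The share of all genes that split in this way was not computed. The 3 libraries titled CD averaged 212 ± 51.3 CPM (SD, n = 3) and the 3 titled CD-CD 107 ± 29.3 CPM, with no overlap, while the HFD monocytes averaged 109 ± 58.1 CPM. The CD-CD and HFD means of monocytes were thus close to each other. Every adipose control carries the CD-CD title, and the part of the title series in the adipose difference cannot be told apart from diet.

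P2ry13 encodes a second Gi-coupled receptor for ADP. It was at 81.5 and 79 CPM on CD and 83.6 and 41.8 CPM on HFD in pop1, and the 2 diets overlapped there. In pop2 it was at 57.6 and 44.7 CPM on CD and at 1.98 and 6.07 CPM on HFD, without overlap. Pop3 held 31 and 2.83 CPM on CD and 17.3 and 6.03 CPM on HFD, and pop4 held 26.8 and 0.135 CPM on CD and 0 and 0.124 CPM on HFD. The pop4 HFD libraries and one of the CD libraries were thus at or under the floor, and no fold is given for pop4. Monocytes ranged from 0.587 to 60.7 CPM over 9 libraries.

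The order of populations for P2ry13 was pop1 (71.5 ± 19.9 CPM, SD, n = 4), pop2 (27.6 ± 27.8), monocytes (26.8 ± 21.6, n = 9), pop3 (14.3 ± 12.7) and pop4 (6.76 ± 13.3), and each overlapped the next. The fitted Tim4+ minus Tim4- difference was 3.07 (SE 0.89), with Tim4+ libraries at 1.98 to 83.6 CPM and Tim4- libraries at 0 to 31 CPM. It ranged from 2.02 with the olfactory and vomeronasal background as a covariate, where its call was lost, to 4.66 without the CD library 7 of pop4. It stayed past the threshold in 21 of the 25 fits that each left out a library. The 4 fits that lost it left out the HFD library 3 of pop2, the CD library 8 or the HFD library 3 of pop3, or the HFD library 2 of pop4. Over adipose populations HFD minus CD was -2.99 (SE 0.89), which did not pass in the main fit but did by DESeq2 and with upper-quartile scaling. This value leans on pop4 groups near 0 and was -0.98 when counts were summed over populations.

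P2ry14, the UDP-glucose receptor, had the widest gap of the members between replicate adipose libraries that were both above the floor. In pop4 CD its libraries held 0.914 and 80 CPM, 87.5-fold apart, and in pop2 CD 4.64 and 97.2 CPM. In pop1 they held 42.3 and 12.6 CPM on CD and 42.1 and 13 CPM on HFD. The HFD libraries of pop2 were at 4.56 and 7.24 CPM, those of pop3 at 0.828 and 6.03 CPM beside 22.1 and 1.13 CPM on CD, and those of pop4 at 10.2 and 6.67 CPM. No adipose population separated the diets, and every pair of neighbours in the order of populations overlapped. Its fitted differences between populations ran from -1.55 (SE 1.19) for pop3 minus pop4 to 1.01 (SE 0.83) for Tim4+ minus Tim4-. Single libraries set both: pop3 minus pop4 was 1.17, of the opposite sign, without the CD library 8 of pop4 and -3.24 without the CD library 7 of pop3. Tim4+ minus Tim4- ran from 0.12 without the CD library 8 of pop2 to 2.36 without the CD library 8 of pop4.

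P2ry6 encodes the UDP receptor, which couples to Gq and promotes phagocytosis in microglia. It was at 83.7 and 88.5 CPM on CD and at 60.3 and 62.6 CPM on HFD in pop1, where the diets did not overlap. In pop2 the values were 91.2 and 69.3 CPM against 64.1 and 71.2 CPM, in pop3 88.6 and 52.9 CPM against 41.9 and 114 CPM, and in pop4 88.3 and 128 CPM against 123 and 83.1 CPM, all overlapping. CD monocytes ran from 78.3 through 106 to 132 CPM, and HFD monocytes were at 152, 17.9 and 143 CPM. P2ry6 was the flattest P2Y receptor across populations, from 73.8 ± 14.4 CPM in pop1 to 106 ± 23.4 CPM in pop4 (SD, n = 4 each), and adipose minus monocytes was -0.38 (SE 0.27). Leaving out the HFD monocyte library 2, the one at 17.9 CPM, took the last difference past the threshold.

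P2ry2 was close to the floor in most libraries. It ranged from 0 to 9.94 CPM over the 16 adipose libraries with a median of 0.967 CPM, and from 0 to 4.28 CPM over the 9 monocyte libraries with a median of 0.499 CPM. The highest value came from CD library 8 of pop1, whose partner held 0.729 CPM. Depth does not allow a difference to be seen in most groups, and no fold is drawn.

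GPR34 responds to lysophosphatidylserine, a lipid exposed by injured cells. In CD libraries Gpr34 reached 685 and 544 CPM in pop1, 710 and 859 CPM in pop2, 739 and 902 CPM in pop3 and 122 and 221 CPM in pop4. The HFD libraries held 288 and 253 CPM in pop1, 121 and 126 CPM in pop2, 270 and 430 CPM in pop3 and 111 and 67.4 CPM in pop4. All 8 HFD libraries therefore lay below both CD libraries of their population, and the CD means were 2.27, 6.35, 2.34 and 1.93 times the HFD means in pop1 to pop4. CD monocytes ran from 32.2 through a median of 58.8 to 102 CPM, and HFD monocytes stood at 69.9, 85.8 and 96.9 CPM, within the CD range.

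Gpr34 averaged 585 ± 287 CPM in pop3, 454 ± 386 in pop2, 442 ± 208 in pop1, 130 ± 64.7 in pop4 (SD, n = 4 each) and 68.7 ± 25.8 in monocytes (n = 9). The first 3 overlapped. All pop3 and pop1 libraries lay above every pop4 library, but the pop2 HFD libraries, at 121 and 126 CPM, did not. They were inside the pop4 range of 67.4 to 221 CPM, which also overlapped that of monocytes. Adipose minus monocytes was 2.08 (SE 0.21), pop3 minus pop4 2.12 (SE 0.32), Tim4+ minus Tim4- 0.47 (SE 0.22) and pop1 minus pop2 0.39 (SE 0.3). The first 2 of these kept their call in all 25 fits that each left out a library. HFD minus CD was -1.51 (SE 0.22) over the adipose populations, with -2.67 (SE 0.46) in pop2, -1.23 (SE 0.44) in pop3, -1.19 (SE 0.43) in pop1 and -0.95 (SE 0.43) in pop4. The average kept its call in each of the 25 fits that left out a library and was -1.1 without both HFD libraries of pop2; it had no call when counts were summed over populations into 2 CD and 2 HFD sums, a test in which 0 of all genes passed. The pop2 difference lost its call when only the 4 pop2 libraries were fitted, where again no gene passed. In monocytes HFD minus CD was 0.47 (SE 0.3). The Tim4+ minus Tim4- difference of Gpr34 had no call in the main fit. It passed in 4 of 8 other alternatives: DESeq2, only the groups compared, the background covariate, and without both HFD libraries of pop2.

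**Figure D3:**
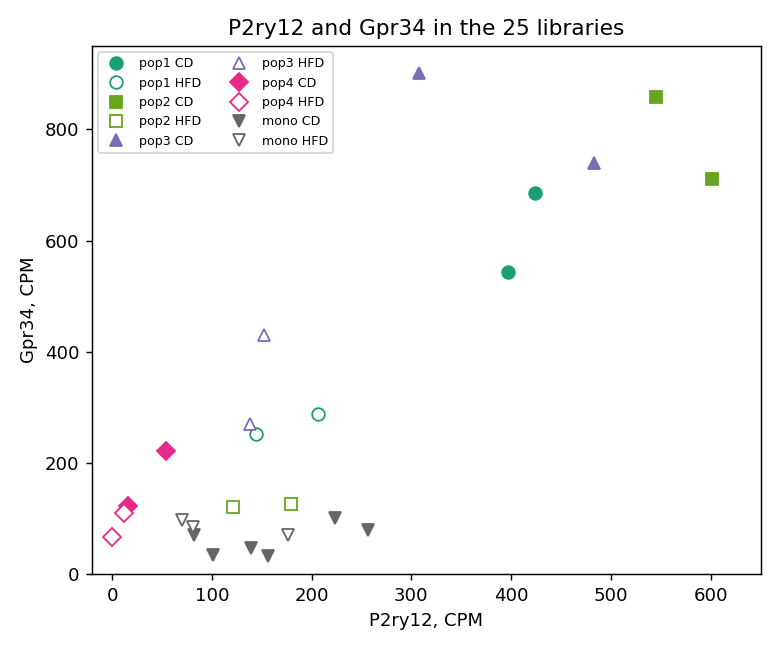
Gpr34 against P2ry12 in the 25 libraries (both axes TMM-scaled CPM, linear; filled markers CD, open markers HFD; marker shape and colour give the population). The 6 CD libraries of pop1, pop2 and pop3 sit at 308 to 601 CPM of P2ry12 and 544 to 902 CPM of Gpr34, and no other library reaches either range.

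P2rx7 encodes the ATP-gated channel that opens at high ATP and leads to NLRP3 inflammasome activation. It was at 165 and 111 CPM on CD and 185 and 121 CPM on HFD in pop1, at 158 and 99.3 CPM and at 145 and 94.3 CPM in pop2, and at 145 and 174 CPM and at 104 and 214 CPM in pop3. The diets overlapped in all of these. Pop4 was lower, with 23.5 and 42.6 CPM on CD and 42.9 and 82.4 CPM on HFD, the only population in which both HFD libraries lay above both CD libraries, by 0.3 CPM at the closest pair. CD monocytes ran from 35.5 through 68.1 to 100 CPM, and HFD monocytes were at 45.7, 69.9 and 72 CPM.

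The levels of P2rx7 followed the order pop3 (159 ± 46.5 CPM, SD, n = 4), pop1 (145 ± 35.5), pop2 (124 ± 32.1), monocytes (63.7 ± 20.5, n = 9) and pop4 (47.9 ± 24.8), each overlapping the next. Pop3 minus pop4 was 1.81 (SE 0.38), and it lost its call without the HFD library 2 of pop4 and when only the 2 populations were fitted. Adipose minus monocytes was 0.75 (SE 0.24), and it lost its call without the CD library 7 of pop2 or the HFD monocyte library 1 or without a filter on low counts. HFD minus CD over adipose populations was 0.24 (SE 0.26), from -0.11 (SE 0.53) in pop2 to 0.92 (SE 0.53) in pop4.

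P2rx4 encodes a second ATP-gated channel, which is largely held in lysosomes. It was at 229 and 240 CPM on CD and 244 and 191 CPM on HFD in pop1, at 190 and 225 CPM and at 232 and 159 CPM in pop2, and at 191 and 219 CPM and at 187 and 196 CPM in pop4. In pop3 it split within each diet, with 250 and 117 CPM on CD and 118 and 245 CPM on HFD. CD monocytes ran from 85.1 through 109 to 203 CPM, and HFD monocytes were at 184, 97.7 and 138 CPM. The largest of its 4 diet differences in adipose populations was -0.11 (SE 0.44) in pop1, and adipose minus monocytes was 0.61 (SE 0.2), a call that was lost without the HFD monocyte library 2 or without a filter on low counts. Unlike P2rx7, its neighbour on chromosome 5, P2rx4 had a similar mean in pop4 (198 ± 14.2 CPM, SD, n = 4) and pop3 (182 ± 74.9 CPM), with pop3 minus pop4 at -0.12 (SE 0.31); the difference between the 2 genes was not tested.

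CD39, the product of Entpd1, starts the breakdown of ATP and ADP. Entpd1 was at 403 and 420 CPM on CD and 252 and 318 CPM on HFD in pop1, and at 464 and 211 CPM and at 228 and 271 CPM in pop2. It was at 252 and 328 CPM on CD and 227 and 244 CPM on HFD in pop3, and at 245 and 226 CPM and at 125 and 174 CPM in pop4. The HFD libraries lay below the CD libraries in pop1, pop3 and pop4 and between them in pop2, with CD means 1.23 to 1.58 times the HFD means. CD monocytes ran from 56.7 through 122 to 208 CPM, and HFD monocytes were at 130, 76 and 92.8 CPM. Mean levels fell in the order pop1 (348 ± 78.1 CPM), pop2 (293 ± 117), pop3 (263 ± 44.7), pop4 (193 ± 54; SD, n = 4 each) and monocytes (115 ± 51.3, n = 9), each overlapping the next. Adipose minus monocytes was 1.26 (SE 0.22), kept in all 25 fits that each left out a library, and HFD minus CD over adipose populations was -0.48 (SE 0.24), which did not pass.

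Over the 9 members, 4 passed as higher in adipose tissue than in monocytes (Gpr34, Entpd1, P2rx4 and P2rx7) and 0 as lower, where 18.5% of all genes tested passed as higher and 18.5% as lower. The members' median difference was 0.61 beside 0.19 for all genes. Between Tim4+ and Tim4- populations 2 members passed as higher (P2ry12 and P2ry13) and 0 as lower, beside 7.26% and 7.79% of all genes, with medians of 0.51 and 0.14. Between pop3 and pop4, 3 members passed as higher in pop3 (P2ry12, Gpr34 and P2rx7) and 0 as lower, beside 4.25% and 2.32% of all genes, with medians of 0.48 and 0.17. Between pop1 and pop2, which differ in their MHCII gate, 0 members passed, also at an unadjusted p under 0.05 and by DESeq2, beside 0.283% of genes higher and 0.183% lower. With DESeq2's size factors the all-gene median shifted by 0.12 for Tim4+ minus Tim4- and by 0.13 for pop3 minus pop4, and the share of higher genes among those that passed went from 48.2% to 60.2% and from 64.6% to 74.7%. For adipose tissue minus monocytes the shift was 0.16, with 3726 genes higher and 2522 lower in place of 3139 each, and for diet in pop2 it was 0.15, with 429 genes lower in place of 583.

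**Figure D4:**
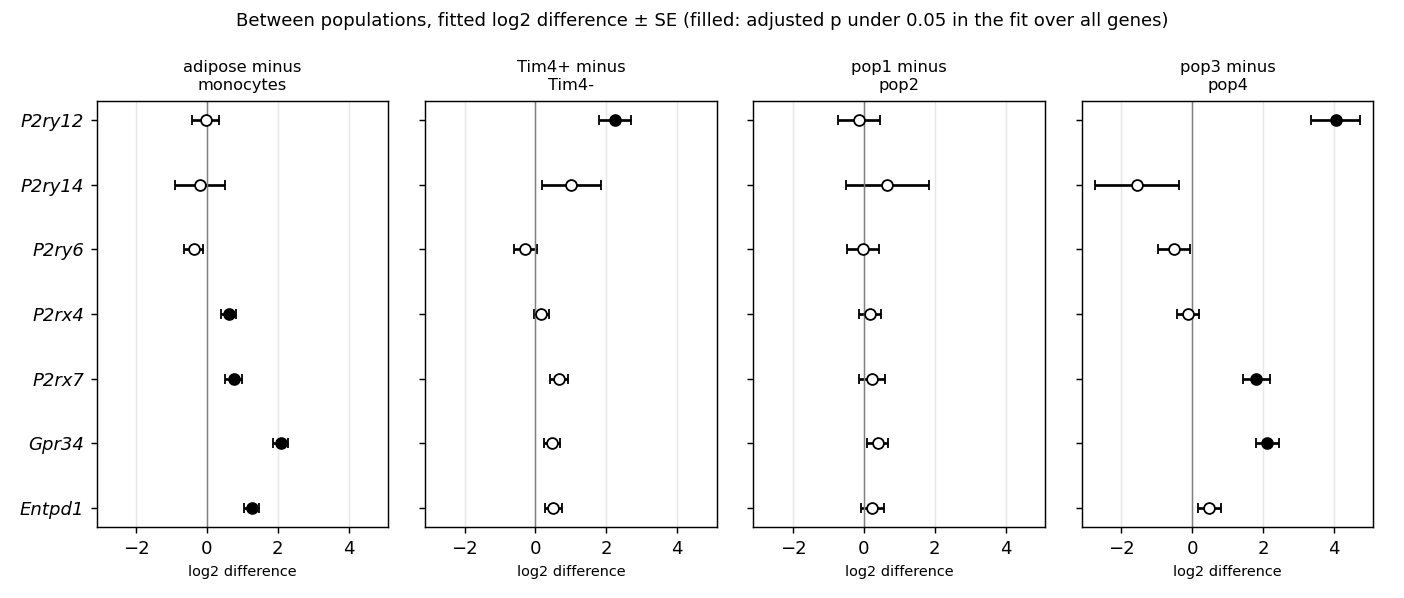
Fitted log2 differences between populations (x axis; bars ± SE) for 7 of the genes, filled where the adjusted p in the fit over all genes was under 0.05; P2ry13 and P2ry2 are left out because of groups at or under the floor. P2ry12, P2rx7 and Gpr34 lie to the right of 0 in pop3 minus pop4, at 4.05, 1.81 and 2.12.

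In the diet comparison over the adipose populations 2 members passed as lower on HFD (P2ry12 and Gpr34) and 0 as higher, beside 3.67% of genes lower and 1.67% higher. The members' median was -0.96 and that of all genes -0.12. Within single populations, 1 member passed, Gpr34 as lower in pop2, where 3.44% of genes passed as lower and 0.755% as higher. In pop1 0 members passed (0.383% of genes lower, 0.0531% higher; 2 members at an unadjusted p under 0.05), and in pop3 0 passed (0.0118% lower, 0.0825% higher; 1 member at an unadjusted p under 0.05), and DESeq2 called 0 members in either. Among the few genes that passed in pop3, the share of higher ones was 87.5% and, with upper-quartile scaling, 75%. In pop4 0 passed (0.0354% lower, 0% higher; 3 members at an unadjusted p under 0.05), whereas DESeq2 called P2ry13 there. No member passed for a difference between the diet effects of Tim4+ and Tim4- populations (0.572% of genes lower, 0.0649% higher; 0 members at an unadjusted p under 0.05 and 0 by DESeq2).

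Both HFD libraries lay below both CD libraries for 5 members in pop1 (P2ry12, P2ry6, P2ry2, Gpr34 and Entpd1), where this held for 26.5% of all genes, and above for 0, against 15.4%. In pop2 it was 3 below (P2ry12, P2ry13 and Gpr34; 18.4% of genes) and 0 above (28.9%). In pop3 it was 3 below (P2ry12, Gpr34 and Entpd1; 24.3%) and 0 above (16.3%), and in pop4 4 below (P2ry12, P2ry13, Gpr34 and Entpd1; 21.2%) and 2 above (P2ry2 and P2rx7; 14.7%). In all 4 populations at once the HFD libraries were below for 2 members, P2ry12 and Gpr34, as for 0.961% of all genes, and above for 0, as for 0.631%.

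**Figure D5:**
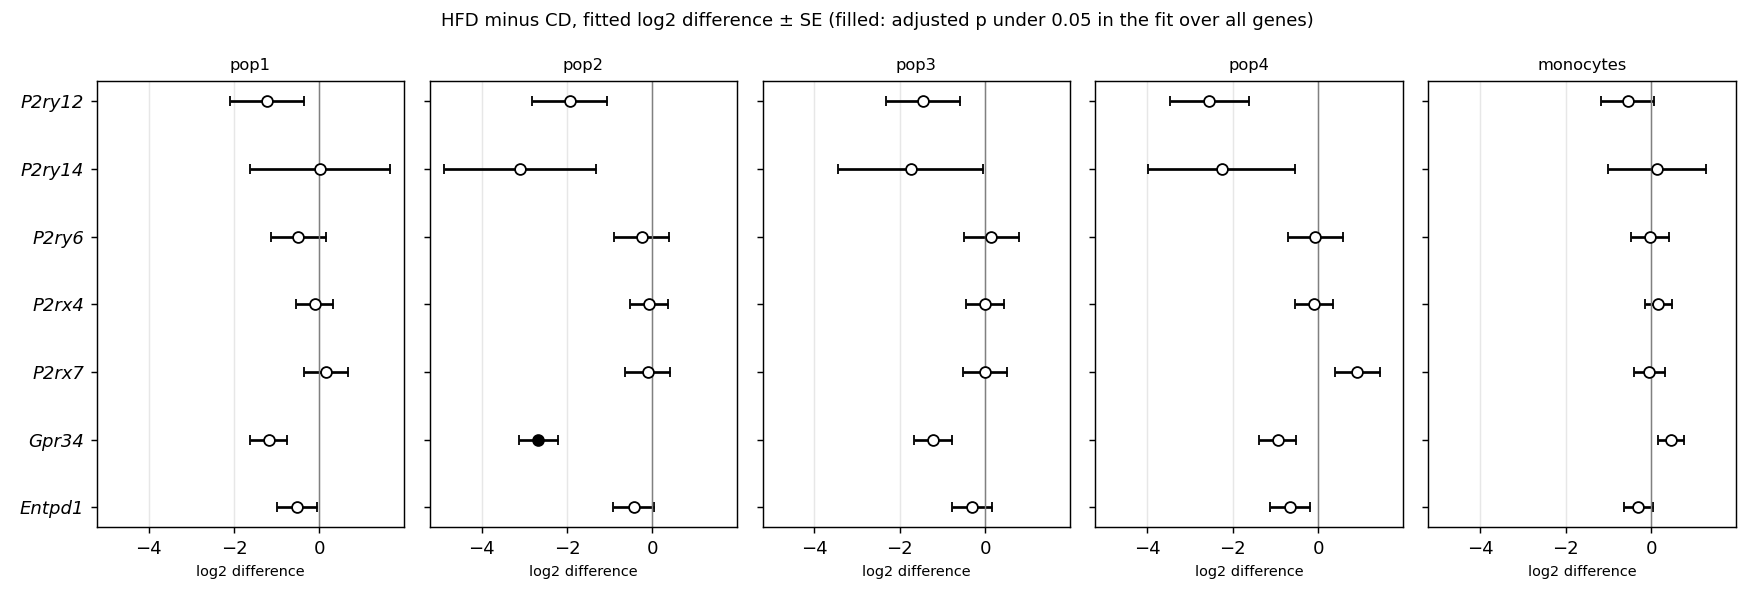
Fitted log2 differences of HFD minus CD in each population (x axis, shared by all panels; bars ± SE) for 7 of the genes, filled where the adjusted p in the fit over all genes was under 0.05. Gpr34 lies between -2.67 and -0.95 in the 4 adipose populations and at 0.47 in monocytes, and the 4 adipose values of P2rx4 lie between -0.11 and -0.01.

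In monocytes 0 of the 9 members passed in the diet comparison, also at an unadjusted p under 0.05 and by DESeq2, where 0% of all genes passed as lower and 0.0059% as higher (1 gene, and 1 in each direction with upper-quartile scaling). The members' median was -0.02 and that of all genes -0.08. The HFD and CD monocytes overlapped for all members.

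Several marker lists also moved with diet, though not all of them in every population. The summed level of 6 macrophage markers (Adgre1, Csf1r, Mertk, Fcgr1, Cd68 and C1qa) was 2290 to 2360 CPM on CD and 1930 to 2070 CPM on HFD in pop1, 2700 to 3150 against 1840 to 1890 CPM in pop2, and 2270 to 2420 against 1520 to 2000 CPM in pop3, and it overlapped in pop4 (1200 to 1770 against 1410 to 1540 CPM). Its members did not move alike: C1qa averaged 548 CPM on CD and 700 CPM on HFD in pop2. The stromal markers (5 genes) summed to 126 to 627 CPM on CD and 24.7 to 42.2 CPM on HFD in pop1. In pop2 they summed to 233 to 355 and 123 to 137 CPM. The monocyte markers (5 genes) summed to 659 to 780 and 130 to 258 CPM in pop1 and to 501 to 788 and 273 to 277 CPM in pop2. Both sums overlapped in pop3 and pop4. Stromal sums were 257 to 1190 against 84.5 to 561 CPM in pop3 and 51.6 to 234 against 96.7 to 273 CPM in pop4. Monocyte sums were 1350 to 1840 against 1530 to 1820 CPM in pop3 and 2390 to 2770 against 2490 to 2710 CPM in pop4. Adipocyte markers (5 genes) were lower on HFD in pop1 (407 to 605 against 354 to 359 CPM) and higher in pop3 (708 to 833 against 1060 to 1150 CPM). They overlapped in pop2 and pop4. Timd4, the gating gene, was lower on HFD in pop1 and pop2, as given above. The part of these levels in the results for P2ry12 and Gpr34 was not tested. P2ry12 is also a platelet gene, and the summed level of 6 platelet markers was lower on HFD without overlap in all 4 adipose populations, as P2ry12 was. The sums were 799 to 859 CPM on CD and 553 to 655 CPM on HFD in pop1, 878 to 961 and 696 to 737 CPM in pop2, 941 to 987 and 588 to 630 CPM in pop3, and 231 to 277 and 173 to 216 CPM in pop4. In monocytes they were 147 to 531 and 347 to 409 CPM, which overlapped. Pf4, a platelet chemokine, made up most of each adipose sum, with CD and HFD means of 822 and 578 CPM in pop1, 843 and 687 in pop2, 803 and 541 in pop3, and 243 and 174 CPM in pop4. Ppbp, another platelet chemokine, averaged 4.04 and 0.413 CPM in pop1, 71.6 and 0.216 in pop2, 157 and 66 in pop3, and 10.6 and 15.8 CPM in pop4. Treml1 averaged 0.0731 and 23.5 CPM in pop1 and 0.395 and 26 CPM in pop2. The platelet glycoprotein gene Gp9 averaged at most 0.511 CPM in any adipose group and 15.3 and 17.9 CPM in CD and HFD monocytes, and Gp9 and Treml1 were at 0 in both pop4 HFD libraries. The part of these transcripts in the P2ry12 result was not tested.

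Reads on olfactory and vomeronasal receptor genes, taken as a measure of background, took 607 to 644 CPM on CD and 245 to 267 CPM on HFD in the pop1 libraries. The corresponding values for pop2 were 388 to 398 and 490 to 686 CPM. They were 422 to 659 and 194 to 328 CPM in pop3 CD and HFD, and 116 to 190 and 79.6 to 84.8 CPM in pop4. Background was lower on HFD in pop1, pop3 and pop4 and higher in pop2, and its part in the diet differences of P2ry12 and Gpr34 was not tested beyond one fit. With this background as a covariate, Gpr34 over the adipose populations was -1.83. The monocytes carried 93.1 to 256 CPM, and with the covariate the adipose over monocyte call of Entpd1 and the Tim4+ over Tim4- call of P2ry13 were lost. In the same fit Gpr34 gained a Tim4+ over Tim4- call, at 1.12 in place of 0.47.

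The genes Med12l and Cask span members on the opposite strand, and the labels do not say whether counting used strand, so reads of such a pair cannot be told apart. Med12l, a Mediator subunit gene, covers P2ry12, P2ry13 and P2ry14, and 9 exonic bases of P2ry12 and 0 of the other 2 are shared in GENCODE M21. It ranged from 0.494 to 78.2 CPM, and over the adipose populations it differed by 0.5 (SE 0.68) between diets, which did not pass. Med12l did pass as higher in Tim4+ than in Tim4- populations (2.17, SE 0.7, edgeR adjusted p = 0.0412), as P2ry12 and P2ry13 did. Pop3 minus pop4 was 2.6 (SE 1.01) for Med12l, of the same sign as P2ry12 and P2ry13, and did not pass. The part of Med12l reads in these differences was not tested. Cask, which encodes a membrane scaffold kinase, covers Gpr34 and shares 0 exonic bases with it. It stood at 39.5 to 259 CPM and differed by -0.53 (SE 0.27) between diets (edgeR adjusted p = 0.283), of the same sign as Gpr34. Cask was lower in adipose tissue than in monocytes (-0.7, SE 0.23, edgeR adjusted p = 0.0201), opposite in sign to Gpr34. Its pop3 minus pop4 difference was 1.05 (SE 0.38), of the same sign as Gpr34, and did not pass. The microRNA gene Mir8115 lies within the exons of P2rx7 and takes 1.99% of its exonic bases.

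Members whose adipose patterns ran together were compared over the 16 adipose libraries on the log2(CPM + 1) scale, as a description; the libraries share populations and diets. P2ry12 and Gpr34 had a Pearson r of 0.831, and 0.691 after group means were removed. With 2 libraries per group the deviations from its mean mirror each other, so values without group means rest on fewer than 16 independent points. P2ry12 with Entpd1 gave 0.67 and with P2ry13 0.662, but -0.357 and -0.22 after group means were removed. P2rx4 gave 0.653 with P2ry14 and 0.558 with P2ry6, and 0.579 and 0.705 within groups. Values of like size and opposite sign occurred within groups: P2ry13 with Gpr34 gave 0.592 and then -0.68, and P2ry14 with Entpd1 -0.0374 and then -0.637. Among 9670 genes with a mean of at least 10 CPM there, the closest to P2ry12 were Gpr183, an oxysterol receptor (r = 0.954), Selenop, the selenium carrier (0.952), and Mgst1, a glutathione transferase (0.939). Closest to Gpr34 were C3ar1, the receptor for the complement fragment C3a (0.936), the protease Ctsc (0.896) and the inhibitory receptor Lair1 (0.894). The 3 nearest to P2rx7 were Tuft1 (0.912), Tppp (0.903) and Wdfy3 (0.903), and to P2ry13 Usp24 (0.88), Cxcl13 (0.847) and Bank1 (0.844). For P2ry14 they were Chmp3 (0.857), Aktip (0.815) and Gimap9 (0.812), for P2ry6 Arf1 (0.859), Polm (0.838) and Pitpna (0.833), for P2rx4 Nudt16 (0.851), Ppp1r2 (0.846) and Cgnl1 (0.84), and for Entpd1 Cyp2j6 (0.801), Mamdc2 (0.796) and Wfdc17 (0.794). The ranks depended on the measure: Gpr183 came 16 with a pseudocount of 5 and 28 by Spearman's rho, and by rho Nudt16 came 50, Ppp1r2 78, Bank1 71 and Mamdc2 64, whereas Chmp3 and Usp24 stayed at rank 1.

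Other genes of nucleotide signalling were read from lists, for which the median over all genes tested was 0.19 between adipose tissue and monocytes and -0.12 between diets over the adipose populations. Their counts between adipose tissue and monocytes stand beside 18.5% of all genes passing in each direction, and those for diet over the adipose populations beside 3.67% lower and 1.67% higher. Of the other P2 receptors and their relatives, 10 of 14 in the table were tested, and 5 passed as lower in adipose tissue than in monocytes and 0 as higher, with a median of -1.8. Lpar6, a lysophosphatidic acid receptor, was at 20 to 279 CPM in adipose libraries and 563 to 733 CPM in monocytes (-2.58, SE 0.29, adjusted p = 5.04e-07). P2ry1, the Gq-coupled ADP receptor, was at 69.9 to 230 CPM in monocytes, 30 to 220 CPM in pop4 and 0.487 to 9.09 CPM in pop1. In pop2 it was at 3.09 to 7.7 CPM apart from the CD library 8 at 111 CPM, and in pop3 at 3.2 to 6.8 CPM apart from 1 HFD library at 87.9 CPM. It passed as lower in Tim4+ than in Tim4- populations (-2.41, SE 0.67, adjusted p = 0.0181), with pop4 the one population in which all 4 libraries were high. P2ry12 was at 144 to 424 CPM in pop1 and 0 to 54.2 CPM in pop4. P2ry10, a lysophosphatidylserine receptor, was at 0 to 1.32 CPM in pop1 and 59 to 111 CPM in pop4. Over the adipose populations 0 of the 10 passed for diet (1 at an unadjusted p under 0.05, 0 by DESeq2).

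Of the 4 adenosine receptors, 2 passed as lower in adipose tissue than in monocytes, Adora3 and Adora2b, and Adora3 was 3.92 to 33.3 CPM in pop4 but 0 in all 4 pop2 libraries. Adora2b stood at 42.2 to 136 CPM in monocytes and 0.441 to 119 CPM in adipose tissue (-1.7, SE 0.44, adjusted p = 0.00525). Among 12 other ectonucleotidases tested, 4 were higher in adipose tissue (Acpp, Enpp1, Enpp2 and Entpd5) and 1 lower, Nt5e, which encodes CD73, the enzyme that turns AMP into adenosine. Acpp was at 2.79 to 113 CPM in adipose libraries and 0 to 11 CPM in monocytes (4.49, SE 0.93, adjusted p = 0.000777). Enpp1, which cuts ATP to AMP and pyrophosphate, was at 52.2 to 76.9 CPM in pop1 and 0 to 10.8 CPM in pop4 and passed as higher in Tim4+ populations (3.43, SE 0.83, adjusted p = 0.00815). Nt5e was at 37.2 to 49.6 CPM in pop1 CD and 0 to 0.138 CPM in pop1 HFD, at most 6.05 CPM in the other adipose libraries, and 0 to 31.3 CPM in monocytes, so its lower call rests on groups near 0.

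Of 11 genes for adenosine uptake and breakdown, 7 were lower and 1 higher in adipose tissue (median -0.95; 18.5% of all genes in each direction). Pnp, purine nucleoside phosphorylase, was at 75.2 to 180 CPM in adipose libraries and 260 to 352 CPM in monocytes (-1.19, SE 0.13, adjusted p = 6.13e-07). Among 10 genes for nucleotide release, 4 were lower and 2 higher (median -0.79). Panx1, the channel through which dying cells release ATP, was at 0 to 32.1 CPM in adipose libraries and 32.9 to 69.7 CPM in monocytes (-3.82, SE 0.42, adjusted p = 4.39e-07). It also passed as lower on HFD over the adipose populations (-2.05, SE 0.53, adjusted p = 0.024), with 20.9 to 32.1 CPM on CD and 1.52 to 1.79 CPM on HFD in pop1. Of 6 genes of lysophosphatidylserine handling, the lipid that acts on GPR34, 2 were higher and 0 lower in adipose tissue, and 0 passed for diet over the adipose populations (2 at an unadjusted p under 0.05, 0 by DESeq2). Abhd12, the main lipase for this lipid, was at 86.6 to 367 CPM in adipose libraries and 73 to 155 CPM in monocytes (0.82, SE 0.18, adjusted p = 0.0015).

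The NLRP3 inflammasome list, which acts downstream of P2RX7, had 6 of 12 genes lower and 2 higher in adipose tissue. Il1b was at 0 to 252 CPM in adipose libraries and 110 to 496 CPM in monocytes (-4.88, SE 0.64, adjusted p = 5.11e-06), and Nlrp3 at 0.123 to 12.8 CPM and 9.75 to 33.4 CPM (-2.61, SE 0.47, adjusted p = 0.000218). The median of the list was -0.25. On HFD, 2 of the 12 fell over the adipose populations (median -0.13). Casp1, the protease that matures interleukins, was at 382 to 406 CPM on CD and 54.6 to 78 CPM on HFD in pop2 (-2.57, SE 0.38, adjusted p = 0.000442) and differed by -1.32 (SE 0.18, adjusted p = 0.000251) over the populations. Il18 was at 169 to 198 CPM and 42.3 to 83.3 CPM in pop2 (-1.55, SE 0.38, adjusted p = 0.0229). P2rx7 itself differed by -0.11 (SE 0.53) there.

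Of 19 genes of G protein and calcium signalling, 5 were higher and 6 lower in adipose tissue (18.5% of all genes in each direction). Gnaq, the G protein subunit used by P2RY6, was at 148 to 367 CPM in adipose libraries and 70.7 to 175 CPM in monocytes (1.1, SE 0.15, adjusted p = 1.01e-05), and Itpr1, a calcium release channel, at 1.95 to 195 CPM and 167 to 278 CPM (-3.95, SE 0.29, adjusted p = 1.04e-09). Over the adipose populations Rgs18 fell on HFD (-0.84, SE 0.16, adjusted p = 0.00343) and Grk2, a receptor kinase that silences G protein-coupled receptors, rose (0.82, SE 0.16, adjusted p = 0.00405). Grk2 was at 84.3 to 114 CPM on CD and 177 to 291 CPM on HFD in pop2.

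P2ry12 and Gpr34 are often read as microglia genes, and 13 other such genes were tested. In adipose tissue 4 were higher than in monocytes, among them Fcrls and Siglech, and 5 lower, among them Cx3cr1 (0 to 194 CPM against 145 to 415 CPM; -5.5, SE 0.46, adjusted p = 8.88e-09). Fcrls was at 137 to 639 CPM in adipose libraries and 0 to 7.18 CPM in monocytes (8.34, SE 0.76, adjusted p = 3.06e-08). Siglech was at 53.6 to 175 CPM in pop1 and 0 to 0.261 CPM in pop4, the population that was also lowest in P2ry12. Tmem119 and Sall1, which set microglia apart, reached at most 8.99 and 3.65 CPM in adipose libraries. For diet over the adipose populations 0 of the 13 passed by edgeR, 3 were at an unadjusted p under 0.05, and DESeq2 called 1, Cx3cr1.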

How the data were processed

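The deposited values are whole-number read counts per RefSeq gene model, with 24537 genes and 25 libraries. Per the submitters' processing notes, the tools were STAR 2.5.3a and HOMER and the build mm10; strand and the treatment of reads with several matches are not given in the sources used here. The authors' counts were used as deposited, and total counts per library were 3.75 to 9.34 M. The members and gene lists were chosen with earlier results of these data known. Genes passing filterByExpr by group (16961) were fitted with edgeR 4.0.16 in R 4.3.3 (TMM, robust quasi-likelihood fit of 10 group means over all 25 libraries, 15 residual degrees of freedom). The 11 contrasts were tested (threshold 0.05 after adjustment by Benjamini-Hochberg), and all adjusted p-values in the text come from this test. SE is the log2 difference divided by the square root of F. Levels are TMM-scaled CPM, divided by the table's gene length for comparisons between genes. A test of adipose against monocyte diet effects and the count of genes not overlapping in all 4 populations were added after the data were seen. Named genes are the 9 members, up to 4 genes of a list with the smallest adjusted p in a comparison, genes overlapping a member, and the 3 genes with the highest Pearson r to a member on log2(CPM + 1), the pseudocount being 1; Nt5e, Tmem119, Sall1, Siglech and the other genes named outside this rule were chosen after their values were seen. Numbers in the titles were not used to pair libraries in the main fit, as the labels do not say whether they mark an animal. Deviations from group means of libraries with the same title series and number correlated at -0.056 to 0.0796 (40 pairs). Those of CD and HFD monocytes with the same number correlated at -0.0294 to -0.000226 (3 pairs). In an adipose group of 2 libraries the deviations mirror each other, so the 40 pairs are not independent. Low correlations cannot show that libraries came from separate animals. Alternatives were other scalings, no filter, DESeq2 1.42.0, only the groups compared, a replicate block, the background covariate, summed counts, the monocyte title series, and fits without single libraries or both pop2 HFD libraries. The fitting code was tested on simulated data with 200 changed genes. Results for 1 gene of a list, and for a motif searched, are not reported here.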

Additional observations from a re-analysis of the deposited data

Results flagged for a closer look

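P2ry2 was at 4.28 CPM in CD monocyte library 2, far from the other 5 CD monocyte libraries, which lay between 0 and 0.94 CPM. The gap was 0.78 of the group's range, over a limit of 0.625 that chance passes in about 5 of 100 groups, and 9 genes were screened in this way. P2ry2 libraries also lay on opposite sides by diet in pop1 and pop4: the HFD mean was 0.231 CPM in pop1, below both CD libraries, and 1.91 CPM in pop4, above both. This difference was not tested, and P2ry2 passed in no diet comparison. It rests on 1 and 2 counts in the pop1 HFD libraries and on 8 and 0 counts in the pop4 CD libraries, and the fitted pop1 difference went from -4.45 to -1.59 without CD library 8.

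The fitted diet difference of Gpr34 was -1.51 averaged over the 4 adipose populations and 0.47 in monocytes, and adipose minus monocytes was -1.97 (SE 0.37, log2). It was among 15 genes, 0.0884% of those tested, past the threshold for this contrast. The contrast was chosen after the data were seen, uses the values by which the gene was chosen, and was run in no alternative fit, so it is a description and supports nothing. The other 8 members did not pass, with differences from -3 (P2ry13) to 1.63 (P2ry2), and P2ry12 at -1.24 (SE 0.73).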

How the results depend on the processing

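Of the counts of members past the threshold, 343 values from alternatives stayed within 1.5 times the main count and 17 moved, and of the members' log2 differences 3164 moved by less than their spread, 69 by more, and 0 reversed a call. Such tallies include comparisons with a main count of 0 and fits that left out a library of a group not compared. They also compare numbers of members and not names. With the background covariate, Gpr34 in place of P2ry13 between Tim4+ and Tim4- populations was scored as unmoved. Without a filter on low counts 2 members (Entpd1 and Gpr34) passed in adipose against monocytes and 1 (Gpr34) in the diet comparison over adipose populations. DESeq2 called 4 between Tim4+ and Tim4- populations (Gpr34 and P2rx7 added) and 1 (P2ry13) for diet in pop4. It also called 4 between pop3 and pop4 and 3 for diet over adipose populations, with P2ry13 added in both. Upper-quartile scaling likewise gave 3 for diet over adipose populations (P2ry13 added). When only the groups compared were fitted, 3 members passed between Tim4+ and Tim4- populations (Gpr34 added), and 1 (Gpr34) between pop3 and pop4. In such fits 1 member (Gpr34) passed for diet over adipose and 0 for diet in pop2. Diet over adipose gave 1 (Gpr34) without both pop2 HFD libraries and 0 with counts summed per title number. The last 3 kinds of fit hold fewer samples than the main fit. The cause of these changes was not tested. Leaving out each library in turn gave 3 to 5 members in adipose against monocytes, 1 to 2 for Tim4+ against Tim4-, 2 to 4 for pop3 against pop4, 1 to 3 for diet over adipose, and 0 to 1 for diet in pop4. It leaves an adipose group with 1 library, which is assumed to vary like the other groups. With a replicate block by title series and number, 2 members (Entpd1 and Gpr34) passed in adipose against monocytes, 2 between Tim4+ and Tim4-, 0 between pop1 and pop2, 3 between pop3 and pop4 and 0 for the difference in diet effects. With a block by number in monocytes 0 passed for diet. The labels do not say whether a number marks an animal. Over all genes, the number that passed for diet over adipose was 906, from 0 (summed counts) to 1970 (DESeq2), for adipose against monocytes 6278, from 1480 (background covariate) to 8062, for Tim4+ against Tim4- 2554, from 418 (background covariate) to 4287, and for pop3 against pop4 1114, from 146 (background covariate) to 2675. In single populations the diet counts were 74, 711, 16 and 6 in pop1 to pop4, 0 in each when only the groups compared were fitted, and 724, 1898, 712 and 139 with DESeq2. Depth limits P2ry2 throughout and P2ry13 in pop4.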
